A study of Mus musculus with 18 samples.

Results

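Genes that mark parathyroid chief cells and thyroid C cells were followed in the thyroid, pituitary and hypothalamus of mice carrying a K146Q mutation of the thyroid hormone receptor beta (THRB). The genes were taken by their symbols: Pth, Gcm2 and Casr for the parathyroid, and Calca, Calcb and Ret for C cells, 6 of the 24054 genes in each table. The mutant mice (K146Q, titled Hb in the sample names) carried the substitution on both alleles in every tissue, so that all THRB isoforms were altered, and the WT mice were age-matched. Both groups were untreated 3-month-old males of strain C57BL/Ntac, with 3 mice per genotype and all 3 tissues taken from each mouse, which gave 6 groups of 3 libraries. The substitution disrupts a site at which the receptor is joined to SUMO, a small protein tag, and the study examined how this altered the hypothalamus-pituitary-thyroid axis.

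The parathyroid glands lie against or inside the thyroid lobes in the mouse, and C cells lie between the follicles, so a dissected thyroid can hold both. Chief cells release parathyroid hormone (Pth), which raises blood calcium. They sense calcium through the calcium-sensing receptor (Casr), which restrains the hormone's release when calcium is high, and they need the transcription factor Gcm2 to form and survive. C cells release calcitonin, which lowers blood calcium and is made from Calca by splicing. The same gene gives the neuropeptide CGRP in neurons, and its neighbour Calcb encodes a second CGRP. Ret encodes the receptor tyrosine kinase for the GDNF family of ligands, which binds them together with a GFRA co-receptor. Its activating mutations cause medullary thyroid carcinoma, the tumour of C cells, and it is also expressed by many neurons. In such bulk samples, fewer cells of a type, a smaller share of them in a larger gland and less RNA per cell cannot be told apart. The paper reports that the thyroid of K146Q mice was enlarged and its follicles hyperplastic. The part of gland size in the thyroid differences below was not tested.

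The libraries held 14902330 to 21230050 reads, and 3 reads corresponded to 0.133 to 0.190 CPM, the read count normalised to a common library size. The labelled tissues held their own hormones: Tg, the thyroglobulin gene, lay between 83869 and 357296 CPM in the thyroid and at most at 170 CPM elsewhere, and Gh, the growth hormone gene, lay between 62503 and 213048 CPM in the pituitary and at most at 365 CPM elsewhere. Whole-gene counts cannot show the K146Q base change, so Thrb could not be used to check the genotype labels. Its level lay between 14.9 and 16.3 CPM in WT and 4.98 and 7.19 CPM in K146Q thyroids, between 97.7 and 106 CPM and 142 and 184 CPM in the pituitary, and between 26.1 and 29.96 CPM in the hypothalamus of both genotypes. The thyroid library of WT mouse 1 stood apart in pituitary transcripts, with Gh at 365 CPM against 72.1 to 125 CPM in the other thyroid libraries and Tshb, the thyrotropin beta subunit, at 35.9 CPM against 1.88 to 5.69 CPM. The thyroid library of WT mouse 2 stood apart in thymus transcripts, with 47.0 CPM summed over 8 thymus genes against 2.97 to 9.07 CPM in the others. The tests of Pth, Gcm2, Casr, Calca, Calcb and Ret below were therefore also fitted without each library or mouse in turn. The results of other named genes, the gene lists and the correlations were not refitted in this way. WT mice 1 and 2 are named at some of the values that they set, not at all of them.

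On mouse assembly GRCm38, Pth lies at chr7:113385580-113388570 on the minus strand, Calca at chr7:114631478-114636357 on the minus strand and Calcb at chr7:114718643-114723365 on the plus strand. Gcm2 lies at chr13:41101427-41111035, Casr at chr16:36493696-36562141 and Ret at chr6:118151745-118197718, all on the minus strand. Calca and Calcb are near-identical over part of their coding exons, which bears on how their reads were told apart. The most alike 120 bases of the coding sequences are printed here, with the 5 bases that differ in capitals (115 of 120 identical, 95.8%). The Calca stretch spans chr7:114632481-114634468 and the Calcb stretch chr7:114720214-114722093, each interrupted by an intron.
Calca coding bases 227 to 346: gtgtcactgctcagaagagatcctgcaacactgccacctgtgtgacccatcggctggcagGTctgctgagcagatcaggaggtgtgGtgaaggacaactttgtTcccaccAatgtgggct
Calcb coding bases 230 to 349: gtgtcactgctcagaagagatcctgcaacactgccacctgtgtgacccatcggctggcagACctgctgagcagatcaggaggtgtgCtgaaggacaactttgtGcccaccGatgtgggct
The 2 transcripts (Calca-201 and Calcb-201) were identical at 85.3% of 381 aligned coding bases, with a longest shared run of 60 bases. Other Calca transcripts were less alike. Calca-202 and Calca-207, each with 408 coding bases, matched Calcb-201 at 69.4% of 366 aligned bases, with a longest shared run of 13 bases. Over all annotated exons, 12 of the 1260 distinct 50-base words of Calcb (0.952%) also occurred in Calca, and no 75-base word did. The counts are per gene, so calcitonin and CGRP transcripts of Calca cannot be told apart either.

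Promoters are shown for the members whose window held a motif. Pth, Gcm2 and Calca were all lower in the K146Q thyroid, as was Casr, whose window held none. The part of any motif in these differences was not tested. Promoter windows of 250 bases before the annotated start were read from RefSeq (GRCm38.p6) for 4 of the 6 genes. Capitals mark matches to AGATAA, a site read by GATA factors such as GATA3, which is needed for parathyroid development, and to TGACG, the first letters of the cyclic AMP response element TGACGTCA, on either strand.
Pth, chr7:113388574-113388823, minus strand: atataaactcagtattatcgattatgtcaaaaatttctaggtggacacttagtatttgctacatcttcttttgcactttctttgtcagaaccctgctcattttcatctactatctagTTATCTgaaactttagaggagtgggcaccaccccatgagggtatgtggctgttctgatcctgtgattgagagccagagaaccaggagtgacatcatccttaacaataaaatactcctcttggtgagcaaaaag
Gcm2, chr13:41109989-41110238, minus strand, inside the longer gene span given above: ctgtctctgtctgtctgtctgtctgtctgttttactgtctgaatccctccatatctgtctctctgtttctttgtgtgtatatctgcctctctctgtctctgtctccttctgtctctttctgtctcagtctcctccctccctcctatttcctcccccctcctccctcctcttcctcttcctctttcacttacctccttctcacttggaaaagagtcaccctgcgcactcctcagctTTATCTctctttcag
Calca, chr7:114636358-114636607, minus strand: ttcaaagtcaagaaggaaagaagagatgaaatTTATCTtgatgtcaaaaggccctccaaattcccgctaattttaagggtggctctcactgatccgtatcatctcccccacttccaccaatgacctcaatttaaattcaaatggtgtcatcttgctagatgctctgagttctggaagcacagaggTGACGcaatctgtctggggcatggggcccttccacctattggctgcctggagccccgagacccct
AGATAA began at position -133 from the start in Pth, at -15 in Gcm2 and at -218 in Calca, each time on the opposite strand. TGACG began at -65 in Calca. The Casr window held none of the motifs, and neither the full TGACGTCA nor ATGCGGGT, the GCM motif, was found in any of the 4 windows. Of 32851 mouse promoter windows of this length, 9.99% held AGATAA, 17.8% TGACG (those with the full element among them), 1.55% TGACGTCA and 0.207% ATGCGGGT.

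Transcripts of the 3 parathyroid genes were about 5-fold lower in the thyroid of K146Q mice than in WT mice. Pth measured 3240, 6012 and 3917 CPM in WT mice 1, 2 and 43, and 1489, 490 and 576 CPM in K146Q mice 60, 62 and 83. The groups did not overlap, and within each group 1 mouse was well above the other 2 (mouse 2 in WT and mouse 60 in K146Q). The mean was 4390 ± 1445 CPM in WT and 852 ± 553 CPM in K146Q (SD, n = 3), a ratio of 5.15. The log2 fold change, on the log2(CPM + 0.5) scale used throughout, was -2.50 (SE 0.44, 95% interval -3.52 to -1.48, limma adjusted p = 0.00382).

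Casr measured 183, 326 and 182 CPM in the WT thyroids and 67.6, 28.3 and 37.6 CPM in the K146Q thyroids. Again mouse 2 was highest among WT and mouse 60 highest among K146Q, and no K146Q library reached the lowest WT library. The means of 230 ± 82.9 and 44.5 ± 20.5 CPM differed 5.18-fold, with a log2 fold change of -2.40 (SE 0.34, 95% interval -3.19 to -1.61, limma adjusted p = 0.00153). Gcm2, the least abundant of the 3, measured 31.2, 70.4 and 30.5 CPM in WT (494 to 1113 reads) and 12.5, 4.41 and 7.91 CPM in K146Q (75 to 252 reads). Its means of 44.04 ± 22.9 and 8.27 ± 4.05 CPM differed 5.32-fold, with a log2 fold change of -2.34 (SE 0.42, 95% interval -3.32 to -1.36, limma adjusted p = 0.00427).

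**Figure D1:**
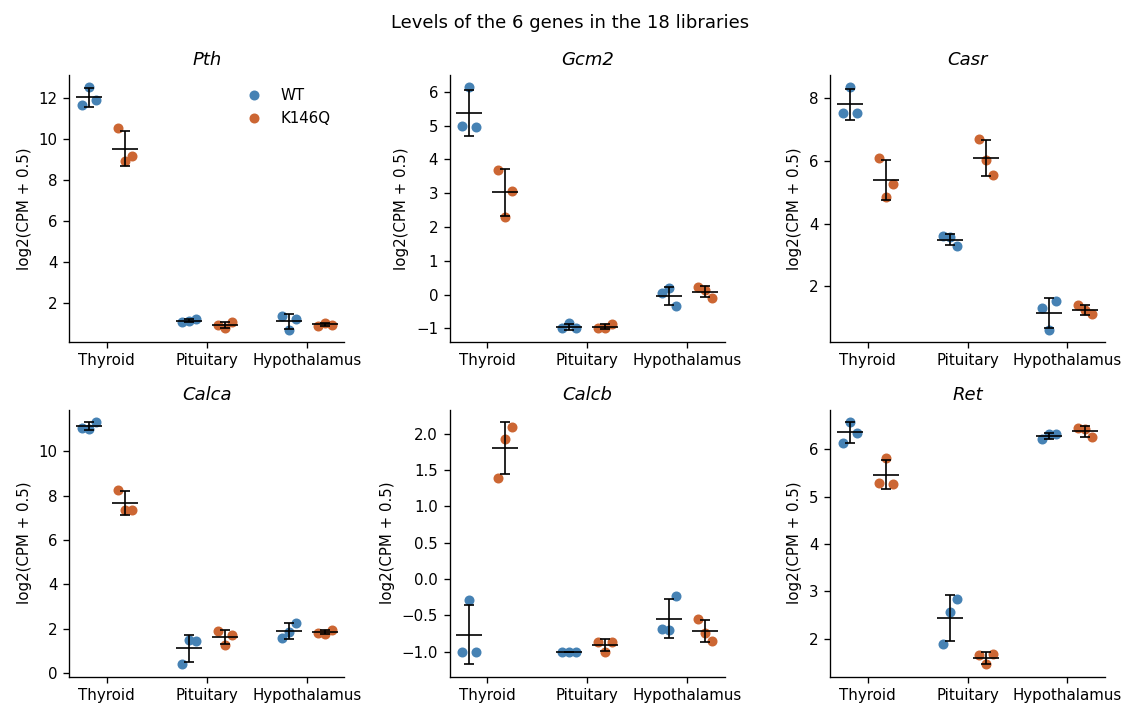
Level of each gene as log2(CPM + 0.5) (vertical axis, one scale per panel) in the 18 libraries, by tissue; points are libraries (WT blue, K146Q orange), bars the mean and SD of 3. All 6 genes separate by genotype in the thyroid. Casr and Ret also separate in the pituitary, Ret without passing the test there. Ret is as high in the hypothalamus as in the WT thyroid.

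The proportions of the 3 parathyroid genes to each other overlapped between the genotypes in the thyroid. There were 85.4 to 128 Pth reads per Gcm2 read in WT and 72.8 to 119 in K146Q (exact permutation test of log2 ratios, two-sided p = 0.7). Pth reads per Casr read were 17.7 to 21.5 in WT and 15.3 to 22.04 in K146Q (exact permutation p = 0.6), and Casr reads per Gcm2 read were 4.63 to 5.96 and 4.75 to 6.43 (exact permutation p = 1). With 3 mice against 3, the smallest p this test can give is 0.1, so these values do not show that the proportions were equal, only that their ranges overlapped. Over the 6 thyroid libraries, which share the genotype difference, the log2 levels of Pth and Casr had Pearson's r = 0.99 and those of Casr and Gcm2 r = 0.99, and with each genotype's mean removed r was 0.96 and 0.97. Per kb of exon the WT thyroid held 6183 CPM of Pth, 48.8 of Casr and 13.3 of Gcm2, and Pth made up 0.255% to 0.488% of all reads there against 0.0448% to 0.141% in K146Q thyroids.

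Calca, the calcitonin gene, showed the strongest fall of the 6. It measured 2158, 2069 and 2591 CPM in WT mice 1, 2 and 43, and 310, 163 and 165 CPM in K146Q mice 60, 62 and 83. The WT values were close together, and WT mouse 2, the highest for the parathyroid genes, was the lowest for Calca. The means were 2273 ± 279 and 213 ± 84.2 CPM, a 10.7-fold difference, with a log2 fold change of -3.48 (SE 0.25, 95% interval -4.06 to -2.89, limma adjusted p = 1.05e-04). Pth reads per Calca read were 1.502, 2.91 and 1.51 in WT mice 1, 2 and 43, and 4.80, 3.00 and 3.50 in K146Q mice 60, 62 and 83. Calca thus fell further than Pth by this ratio, without overlap between the groups (exact permutation p = 0.1, the smallest possible), although the ratios of WT mouse 2 and K146Q mouse 62 were close to each other.

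Ret, the C-cell receptor, was also lower but by much less. The WT thyroids measured 69.6, 95.3 and 81.3 CPM and the K146Q thyroids 38.8, 56.2 and 38.2 CPM. Here mouse 62, which was lowest in Pth, Gcm2, Casr and Calca, was the highest of the K146Q group. Means were 82.1 ± 12.9 and 44.4 ± 10.3 CPM, a 1.85-fold difference, and the log2 fold change was -0.89 (SE 0.17, 95% interval -1.30 to -0.48, limma adjusted p = 0.00630). Calca reads per Ret read ran from 21.7 to 31.9 in WT and from 2.90 to 7.98 in K146Q (exact permutation p = 0.1, the smallest possible).

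Calcb went the other way, at a very low level. Its reads numbered 0, 5 and 0 in WT mice 1, 2 and 43, and 43 to 64 in the K146Q thyroids, or 0 to 0.316 CPM against 2.13, 3.29 and 3.75 CPM. It passed the filter on low values through the K146Q libraries alone, so a difference was built into its being tested. The log2 fold change was 2.57 (SE 0.29, 95% interval 1.89 to 3.24, limma adjusted p = 5.94e-04) and ran from 1.87 to 4.89 over the alternative settings, lowest with a pseudocount of 1 and highest with DESeq2. The libraries with the most Calca reads (32706 to 43089, all WT) were those with the fewest Calcb reads, and those with 2776 to 6251 Calca reads held the most.

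**Figure D2:**
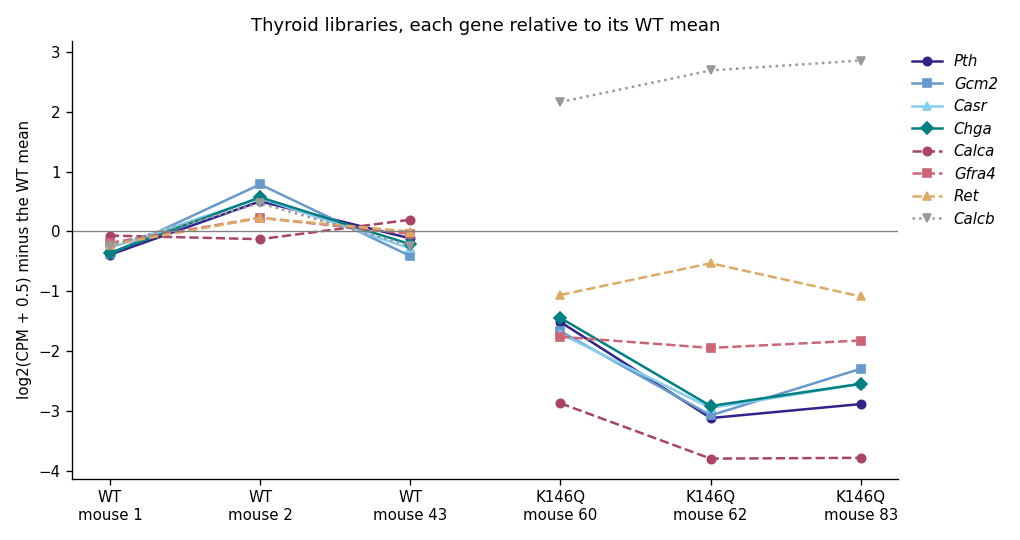
Each thyroid library (horizontal axis) by its log2(CPM + 0.5) minus the WT mean of the gene (vertical axis); lines join values of one gene within a genotype and carry no order. Pth, Gcm2, Casr and Chga move together between -1.44 and -3.11 in K146Q, Calca lies at -2.87 to -3.79, Gfra4 at -1.76 to -1.94, Ret at -0.53 to -1.08 and Calcb at 2.16 to 2.85.

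Set against the whole table, the 5 members that exceeded the filter in both genotypes were all lower in the K146Q thyroid, and Calcb was higher. Among the 15200 genes tested there, 37.8% passed an adjusted p of 0.05 (19.7% higher and 18.1% lower in K146Q), so that passing the test was common in this tissue. The median log2 fold change of all tested genes was -0.025. With any 1 library left out the log2 fold change stayed between -3.00 and -2.19 for Pth, -2.68 and -1.95 for Gcm2, -2.74 and -2.12 for Casr, -3.78 and -3.32 for Calca and -1.07 and -0.78 for Ret, each passing in 6 of 6 fits. This includes the fits without WT mouse 1 and without WT mouse 2. Calcb could be tested in 3 of these fits, those that left out a WT library, and passed in 3. For every member the exact permutation p over the 6 libraries was 0.1, the smallest possible.

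In the pituitary, Casr rose in K146Q mice while the other members did not pass the test. Casr measured 11.6, 11.3 and 9.23 CPM in WT mice 1, 2 and 43, and 103, 64.5 and 46.4 CPM in K146Q mice 60, 62 and 83. Every K146Q pituitary held at least 925 Casr reads and no WT pituitary held more than 261. The means of 10.7 ± 1.30 and 71.3 ± 28.8 CPM differed 6.65-fold, with a log2 fold change of 2.61 (SE 0.24, 95% interval 2.08 to 3.14, limma adjusted p = 2.32e-04). It was the only member called of the 4 tested there, where 9.86% of 15589 genes passed and 6.36% passed with a higher level in K146Q. Casr passed in each of the 6 fits that left out a library. The thyrotroph hormone genes moved in the same direction in these libraries, Tshb from 235 to 593 CPM in WT to 5600 to 8183 CPM in K146Q and Cga, the shared alpha subunit, from 3157 to 4007 CPM to 16205 to 20723 CPM, while Gh lay between 97779 and 213048 CPM in WT and between 62503 and 75385 CPM in K146Q. The part of cell composition in the Casr difference was not tested.

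Ret in the pituitary measured 3.20, 5.43 and 6.61 CPM in WT and 2.63, 2.25 and 2.71 CPM in K146Q. The groups did not overlap, and the log2 fold change of -0.83 (SE 0.23, 95% interval -1.35 to -0.32) fell just short of the threshold (limma adjusted p = 0.0512). Without WT mouse 1, whose Ret was nearest the K146Q values, it passed (limma adjusted p = 0.00905). Calca stood at 0.801 to 2.29 CPM in WT and 1.89 to 3.20 CPM in K146Q pituitaries (log2 fold change 0.52, 95% interval -0.16 to 1.20, limma adjusted p = 0.325), and Pth at 1.65 to 1.88 and 1.23 to 1.66 CPM (-0.22, 95% interval -0.61 to 0.17, limma adjusted p = 0.489). Gcm2 had 0 or 1 read in every pituitary library and Calcb likewise, so neither was tested, and differences in them were not detectable at this depth.

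In the hypothalamus no member differed between the genotypes by the test, nor did any gene, with 0% of 15761 genes called by limma or by edgeR, 9 called by DESeq2 and 645 genes at an unadjusted limma p under 0.05. Ret was abundant, at 73.9, 79.7 and 79.1 CPM in WT and 86.4, 86.0 and 75.7 CPM in K146Q, and the groups overlapped. Its log2 fold change was 0.09 with a 95% interval of -0.04 to 0.22, the narrowest among the members. The other members were scarce. Calca lay between 2.45 and 4.29 CPM, Casr between 1.04 and 2.38 CPM, Pth between 1.16 and 2.15 CPM and Gcm2 between 0.290 and 0.664 CPM (5 to 12 reads), all with overlapping groups. Their log2 fold changes ran from -0.14 for Pth to 0.12 for Gcm2, with 95% intervals inside -0.59 to 0.62. Calcb, with 1 to 6 reads, was not tested.

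**Figure D3:**
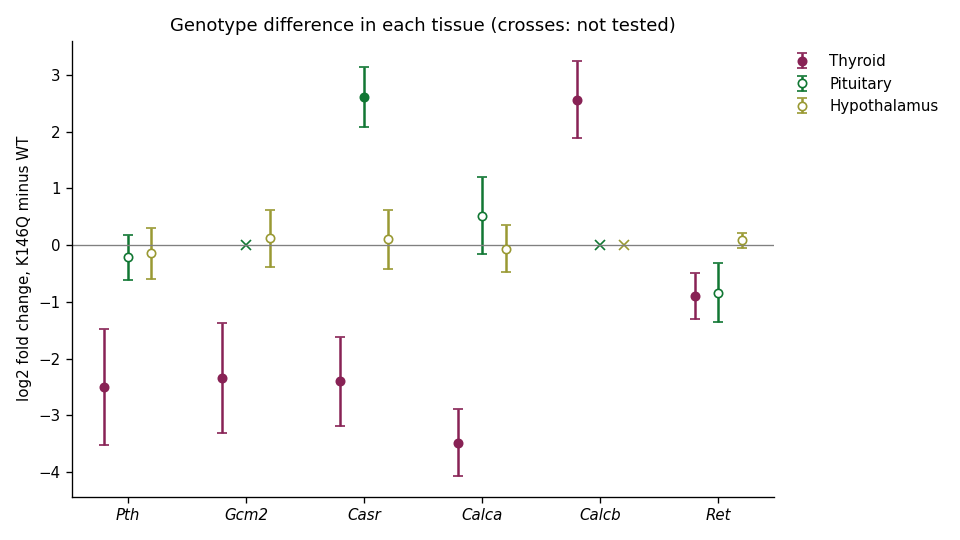
Log2 fold change between K146Q and WT (vertical axis) of each member in each tissue, with its 95% interval from limma (n = 3 per genotype); filled points passed an adjusted p of 0.05 and crosses were not tested. The thyroid values of Pth, Gcm2, Casr and Calca lie between -2.34 and -3.48 while the hypothalamus values lie near 0, and Casr has opposite signs in thyroid and pituitary.

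Levels were next ordered over the 6 groups. For Pth the WT thyroid was highest, then the K146Q thyroid, and the pituitary and hypothalamus groups lay between 1.16 and 2.15 CPM. These overlapped, except the WT pituitary (1.65 to 1.88 CPM) and the K146Q hypothalamus (1.39 to 1.60 CPM), which did not overlap each other. For Calca the order was the same, with the hypothalamus and the K146Q pituitary overlapping each other and the K146Q pituitary overlapping the WT pituitary. Gcm2 followed with the hypothalamus after the thyroid and the pituitary last. Casr ran from the WT thyroid down through the K146Q pituitary and the K146Q thyroid, whose libraries overlapped (46.4 to 103 and 28.3 to 67.6 CPM), to the WT pituitary and then both hypothalamus groups, which overlapped. Ret was alike in the WT thyroid and both hypothalamus groups (69.6 to 95.3 CPM), lower in the K146Q thyroid and lowest in the pituitary, WT above K146Q. Calcb exceeded 6 reads nowhere but in the K146Q thyroid.

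In WT mice these differences were tested in a fit over all 18 libraries. The thyroid exceeded the pituitary by 10.88 on the log2 scale for Pth (limma adjusted p = 3.69e-15), 10.04 for Calca, 6.31 for Gcm2, 4.31 for Casr and 3.93 for Ret, and Calcb did not differ by the test (0.24, adjusted p = 0.316). So 5 of 6 members passed, against 75.6% of all 17140 genes in that comparison. The thyroid exceeded the hypothalamus by 10.93 for Pth, 9.26 for Calca, 6.64 for Casr and 5.40 for Gcm2, whereas Ret (0.07, 95% interval -0.33 to 0.47, adjusted p = 0.741) and Calcb (-0.22, adjusted p = 0.335) did not pass, which made 4 of 6 against 81.9% of all genes. Between pituitary and hypothalamus Casr was higher in the pituitary by 2.33 and Ret lower by a log2 difference of -3.86, with smaller differences for Gcm2 (-0.91, adjusted p = 0.0145) and Calca (-0.78, adjusted p = 0.0191). That gave 4 of 6 members against 73% of all genes, and Pth (0.04, adjusted p = 0.907) and Calcb (-0.46, adjusted p = 0.0590) did not pass. The calls near the threshold depended on the setting. Gcm2 lost its call with a pseudocount of 1 (limma adjusted p = 0.101) and without mouse 1 (0.0764), and Calca lost its call with totals without the 10 highest genes (0.0834), without mouse 1 (0.0722) and without mouse 43 (0.0557). Calcb, at 0 reads in the WT pituitary and 2 to 6 in the WT hypothalamus, gained a call in 5 of 11 alternatives, among them edgeR (adjusted p = 0.0114), and edgeR also called it between WT thyroid and pituitary (adjusted p = 0.0481).

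The few Pth reads outside the thyroid (20 to 37 per library) amounted to 0.0441% to 0.0820% of the mean thyroid level. Thyroglobulin reads outside the thyroid came to 0.0548% to 0.0777% of theirs, and the share of Gh reads in thyroid and hypothalamus libraries was 0.0667% to 0.338% of the pituitary mean. Calca reached 0.0644% to 0.346% outside the thyroid, and Gcm2 1.11% to 2.54% in the hypothalamus. Whether the Pth reads there came from those tissues was not tested.

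The genotype difference itself differed between tissues for most members. Calcb passed the filter of this fit through the K146Q thyroid libraries alone, so its interactions (2.47 against the pituitary and 2.74 against the hypothalamus) were built into its being tested and are not counted. Against the pituitary, 4 of the 5 other members passed a test of the interaction, where 33.8% of all genes did: Casr, lower in the K146Q thyroid and higher in the K146Q pituitary, had the largest difference of the 6 (-5.00, SE 0.45, limma adjusted p = 3.87e-07), followed by Calca (-3.999), Gcm2 (-2.33) and Pth (-2.29). For Ret a difference between both tissues was not detected (-0.06, 95% interval -0.63 to 0.51, adjusted p = 0.896). Against the hypothalamus 5 of the 5 passed, where 30.8% of all genes did, with Ret at -0.98 (adjusted p = 0.0107) and Calca at -3.42. The pituitary values of Gcm2 are 0 or 1 read, so its interaction with the pituitary rests on the thyroid values, and it lost its call with edgeR (adjusted p = 0.662).

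Other genes of the parathyroid were described next by lists. Of 9 genes needed for parathyroid development, 8 were lower in the K146Q thyroid, where 18.1% of all tested genes were lower, and 1, Pax9, did not pass. Their median log2 fold change was -1.72 against -0.025 over all tested genes. Eya1 fell from 15.4 ± 4.395 to 2.43 ± 0.874 CPM (-2.44, limma adjusted p = 5.08e-04) and Gata3, the GATA factor of this lineage, from 37.9 ± 16.2 to 7.74 ± 3.41 CPM (-2.22, adjusted p = 0.00245). Of 8 genes of calcium sensing and hormone secretion, 4 were lower, 1 higher and 3 not called, with a median of -0.26, where 37.8% of all tested genes were called and 18.1% were lower. Kl, the klotho co-receptor of FGF23, fell from 314 ± 112 to 58.0 ± 29.2 CPM (-2.49, adjusted p = 0.00163), Chga, the granule protein chromogranin A, from 9008 ± 3329 to 1937 ± 1088 CPM (-2.30, adjusted p = 0.00634) and Vdr, the vitamin D receptor, from 114 ± 33.6 to 66.9 ± 7.67 CPM (-0.73, adjusted p = 0.0207). Pth reads per Chga read were 0.469 to 0.526 in WT and 0.388 to 0.468 in K146Q.

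The C-cell side was similar in direction. Of 16 C-cell and neuroendocrine genes 14 were tested, and 13 were lower and 1 higher in K146Q, with a median of -2.73. Of all tested genes 18.1% were lower and 19.7% higher. Scg2, secretogranin II, fell from 343 ± 36.5 to 21.98 ± 4.91 CPM (-3.95, limma adjusted p = 1.36e-05), and the prohormone convertases Pcsk2 (134 ± 11.8 to 10.2 ± 2.94 CPM, -3.68) and Pcsk1 (29.6 ± 7.72 to 1.95 ± 0.633 CPM, -3.61), which cut peptide hormones out of their precursors, also fell. The member that rose was the transcription factor Isl1, from 14.5 to 22.4 CPM in WT to 36.4 to 53.8 CPM in K146Q (1.38, adjusted p = 0.00168), named here after its values were seen. Chga stands in this list and the one on secretion and Gfra4 in this list and the next, and several of these genes are also used by other endocrine cells and by nerves.

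Among the ligands and co-receptors of RET, 6 of 8 were tested, with 3 lower, 1 higher and a median of -0.69. Beside them, 18.1% of all tested genes were lower and 19.7% higher. Gfra4, the persephin co-receptor expressed by C cells, measured 25.3, 34.0 and 28.2 CPM in WT and 8.23, 7.17 and 7.86 CPM in K146Q (-1.84, SE 0.14, limma adjusted p = 1.11e-04). Calca reads per Gfra4 read were 60.8 to 91.9 in WT and 21.0 to 37.7 in K146Q, so Calca was lower by this ratio too (exact permutation p = 0.1, the smallest possible). Gfra3, the artemin co-receptor, fell from 3.85 ± 0.685 to 0.531 ± 0.104 CPM (-2.07, adjusted p = 3.17e-04), and Gfra1, the GDNF co-receptor, rose from 6.83 ± 1.40 to 11.9 ± 3.92 CPM (0.74, adjusted p = 0.0474). The Gfra1 call was lost when library totals left out the 10 most abundant genes. Of 12 other peptides and receptors of the PTH and calcitonin families 8 were tested, 2 were higher and none lower, with a median of 0.25, beside 19.7% of all tested genes higher and 18.1% lower (1 higher and 1 lower when library totals left out the 10 most abundant genes): Ramp3 (13.5 ± 1.59 to 22.7 ± 1.83 CPM, 0.73, adjusted p = 0.00337) and Pthlh (1.56 ± 0.544 to 2.76 ± 0.331 CPM, 0.69, adjusted p = 0.0482), whose call was lost under that scaling and with edgeR.

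**Figure D4:**
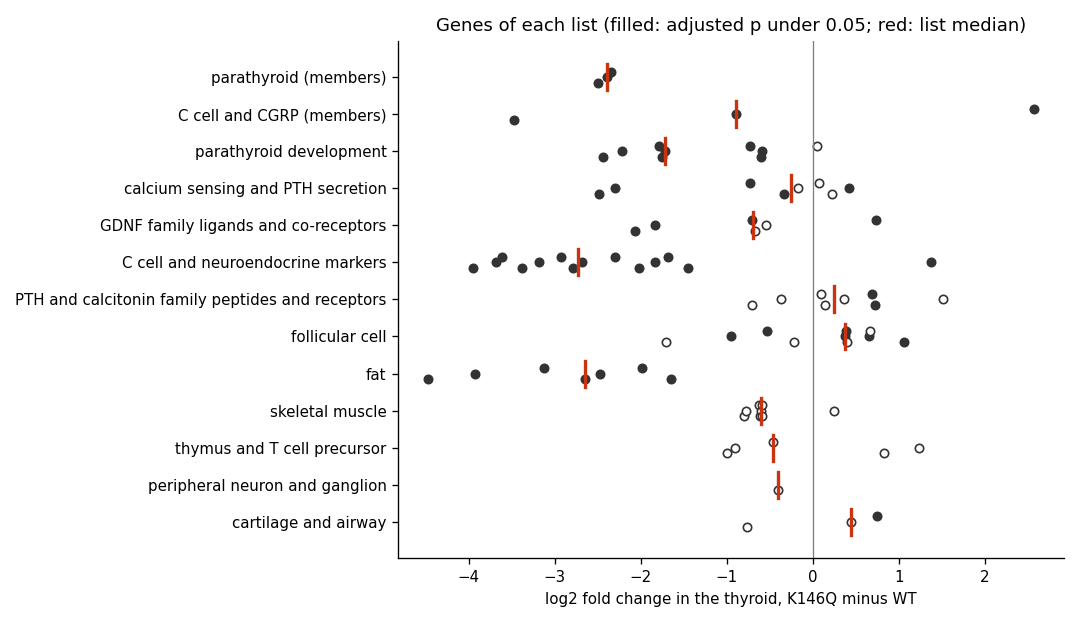
Log2 fold change in the thyroid between K146Q and WT (horizontal axis) of the tested genes of each list (rows); filled points passed an adjusted p of 0.05, open points did not, and the red bar is the list's median. The lists of parathyroid development, C-cell and neuroendocrine genes and fat lie mostly below 0, follicular genes on both sides, and muscle and thymus genes hold no called gene.

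Markers of the tissues that adjoin the thyroid were described by the same means, since a dissected gland can carry them along. Fat genes were lower in K146Q in 7 of 7 cases, beside 18.1% of all tested genes, with a median of -2.65. Their summed level was 739 to 810 CPM in WT against 98.7 to 197 CPM in K146Q. Adipoq, the adipocyte hormone adiponectin, lay between 59.4 and 83.6 CPM in WT and between 17.6 and 35.4 CPM in K146Q, and Ucp1, the uncoupling protein of brown fat, between 29.2 and 171 CPM and between 0.293 and 8.58 CPM. Fat transcripts thus fell together with the parathyroid and C-cell transcripts, and their part in those differences was not tested. The summed level of 8 skeletal muscle genes ran from 385 to 7062 CPM in WT and from 843 to 4106 CPM in K146Q with none called, Acta1 lying between 103 and 1950 CPM and between 217 and 1115 CPM and Ckm between 38.3 and 854 CPM and between 86.2 and 546 CPM. The lowest sum was that of WT mouse 1, with Pth at 3240 and Calca at 2158 CPM. Among K146Q thyroids mouse 60 had the highest summed fat and muscle levels and also the highest Pth, Gcm2, Casr and Calca, and this too was not tested. Thymus genes (5 of 8 tested, none called) summed to 2.97 to 47.0 CPM in WT and 5.80 to 9.07 CPM in K146Q; Foxn1 stayed at or under 5.15 CPM and Ptcra at or under 1.39 CPM. WT mouse 2, the highest for thymus genes, was also the highest WT library for Pth, Gcm2 and Casr, and the part of this in their levels was not tested.

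Most nerve markers and some cartilage and airway markers were near the detection limit. Of 8 peripheral neuron genes 1 was tested and none called, their sum lay between 1.83 and 2.41 CPM in WT and between 0.882 and 2.18 CPM in K146Q, and Prph, a defining gene, stayed at or under 0.902 CPM. Phox2a measured 0 to 0.190 CPM in WT and 0.176 to 0.545 CPM in K146Q and Scn10a 0 and 0 to 0.234 CPM, both named after their values were seen. The part of nerve tissue in the Calcb difference was not tested. Of 7 cartilage and airway genes 3 were tested and 1, Col9a1, was higher (3.59 ± 0.965 to 6.28 ± 0.656 CPM, 0.75, limma adjusted p = 0.0207), with Col2a1 at or under 0.470 CPM and Foxj1 between 1.92 and 5.30 CPM.

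Follicular cell genes, which mark the cells that make thyroid hormone, moved in both directions. Of 10, 4 were higher and 2 lower, with a median of 0.38, beside 19.7% and 18.1% of all tested genes; with totals without the 10 highest genes 2 were higher and 2 lower, and with edgeR 4 and 3. Tshr, the thyrotropin receptor, rose from 253 ± 43.8 to 522 ± 31.3 CPM (1.06, limma adjusted p = 0.00114) and Hhex from 130 ± 19.9 to 204 ± 12.0 CPM (0.66, adjusted p = 0.00500), while Duox2, an oxidase of hormone synthesis, fell from 77.3 ± 5.58 to 40.2 ± 7.97 CPM (-0.95, adjusted p = 0.00207). Tg itself took up a large part of the WT libraries, at 293439 to 357296 CPM against 83869 to 130421 CPM in K146Q, and the groups did not overlap. Its log2 fold change was -1.71, and whether it passed depended on the variance model. It did not pass in limma with a variance trend, which gave SE 5.14 and adjusted p = 0.820. It passed in limma without the trend (adjusted p = 0.00127) and, on the recovered reads, in edgeR (adjusted p = 0.0221) and DESeq2 (adjusted p = 1.42e-21).

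The genes whose log2 levels followed Pth most closely over the 6 thyroid libraries, among 14246 genes, were Jph4, Podxl2, Rarres2, Chga and Cryba2, with Pearson's r from 0.998 to 0.999 and, with the genotype means removed, from 0.986 to 0.998. Podxl2 ran from 13.8 to 20.8 CPM in WT and from 3.94 to 7.78 CPM in K146Q, and like Pth it was highest in mouse 60 among K146Q. For Calca the closest were Slc25a1, Mpc1, Lipe, Irs3 and Acsm3, with r from 0.998 to 0.999 and from 0.946 to 0.991 with genotype means removed. Lipe encodes hormone-sensitive lipase of fat cells and lay between 141 and 153 CPM in WT and between 34.4 and 52.7 CPM in K146Q. The parathyroid genes followed Calca less closely than each other: with genotype means removed, r was 0.78 for Pth, 0.60 for Casr and 0.43 for Gcm2 with Calca, and -0.40 for Ret with Calca. These correlations describe 6 libraries that share genotype, depth and dissection.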

How the data were processed

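RNA-Seq of snap-frozen tissues gave 18 libraries, 14902330 to 21230050 reads each. The submitters' notes name bcl2fastq 2.17, Bowtie2 2.1.0, RSEM 1.2.15 and mm10 (GRCm38). Their roles and the read length are not given in the sources used here. The authors deposited, per tissue, a normalised signal per gene and library, here called CPM, as the reads were scaled to the effective library size. The normalization factors differed by library, from 0.788 (thyroid of WT mouse 1) to 1.11 (hypothalamus of WT mouse 43). Their product over all 18 libraries is 1.0, from which a joint normalization of the tissues was assumed. All 432972 values were whole reads (100.0%, within 0.05 read). Columns holding the authors' own fold changes and p-values were not used.

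Genes that reached 0.5 CPM in 3 or more libraries were tested on log2(CPM + 0.5) with limma 3.58.1 (R 4.3.3) with a variance trend, within each tissue for genotype and over 18 libraries for tissues and interactions, with Benjamini-Hochberg adjustment over all tested genes at 0.05. Single ratios were compared by two-sided exact permutation tests. Alternatives were edgeR 4.0.16 and DESeq2 1.42.0 on the recovered reads, other pseudocounts (0.1 and 1), filters and scalings, leaving out each library, and the mouse number as a replicate block. The scripts were tested on simulated data. The series states that the tissues came from 3 mice per genotype and the titles give the same mouse numbers in each tissue, which pairs the samples. Deviations of same-numbered samples from their group means correlated with r from -0.0673 to 0.29. For differently numbered samples of the same genotype r ran from -0.192 to 0.0735, so the ranges overlapped.

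The members and gene lists were chosen with earlier results of these data known. All members were named in every library; of each list, up to 3 called genes with the largest change and a mean of at least 1 CPM, the defining genes of adjoining tissues, and 5 genes that follow Pth and 5 that follow Calca. Some genes that this rule names are not reported here. In the pituitary and hypothalamus files 27 symbols appear as dates and were left out of comparisons between tissues (24027 genes shared). Positions are from GENCODE M21.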

Additional observations from a re-analysis of the deposited data

Results flagged for a closer look

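The genotype difference differed between tissues by an interaction test for most of the 6 genes, as values on the log2 scale of the thyroid difference (K146Q minus WT) minus that of the other tissue. Against the pituitary it was -5.00 for Casr, -3.999 for Calca, 2.47 for Calcb, -2.33 for Gcm2 and -2.29 for Pth. Against the hypothalamus it was -3.42 for Calca, 2.74 for Calcb, -2.50 for Casr, -2.46 for Gcm2, -2.36 for Pth and -0.98 for Ret. Calcb was tested only because the K146Q thyroid libraries exceeded the filter on low values, so its differences were built in. The Ret difference lost its call without mouse 60 (limma adjusted p = 0.0682) or mouse 2 (0.0514). With edgeR on the recovered reads, Gcm2 (adjusted p = 0.662) and Calcb (0.856) lost theirs against the pituitary, where both had 0 or 1 read per library.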

How the results depend on the processing

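Of 639 alternative fits of 45 results for single members, 603 kept the direction and stayed called or stayed uncalled. Some of these fits could not move the log2 value. They are the other filters, variance trend and block, and, for differences between WT tissues, the fits without a K146Q mouse. In the thyroid every member kept direction and call in each alternative that gave a value (11 for Calcb, 15 for each of the others). With the replicate block the counts of members called did not change, and Pth differed between WT thyroid and pituitary by 10.88 as without it (adjusted p = 3.15e-12). In the pituitary 2 members (Casr and Ret) rather than 1 were called with at least 1 CPM in every library, with totals without the 10 highest genes, with edgeR and with DESeq2. Requiring 1 CPM in every library left 3, 2 and 2 members called between WT thyroid and pituitary, thyroid and hypothalamus, and pituitary and hypothalamus, and 2 and 3 for the interactions with pituitary and hypothalamus, since fewer members were tested; edgeR gave 3 for the interaction with the pituitary. DESeq2 called 9 genes in the hypothalamus. Values near 0 changed sign: Ret between WT thyroid and hypothalamus (-0.000350) and Pth between WT pituitary and hypothalamus (-0.00950) with median-of-ratios scaling, and the Ret interaction with the pituitary with a pseudocount of 0.1 (0.0260) and edgeR (0.0721). Totals without the 10 highest genes moved the median of all thyroid genes to -0.118 and the thyroid split from 2992 higher and 2747 lower to 2502 and 3629, and the pituitary split from 991 and 546 to 841 and 885.

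Leaving out a library gave 3602 to 5106 genes called in the thyroid (lowest without K146Q mouse 62), 625 to 1345 in the pituitary (lowest without K146Q mouse 60, and 752 without mouse 62), 0 to 6 in the hypothalamus and 3476 to 4680 for the interaction with the hypothalamus (lowest without mouse 62). It gave 1 to 2 members called in the pituitary (2 without WT mouse 1) and 2 to 5 between WT pituitary and hypothalamus (2 without mouse 1). In the hypothalamus Pth ran from -0.34 to 0.00227, Gcm2 from -0.0337 to 0.23, Casr from -0.16 to 0.29 and Calca from -0.22 to 0.13. Between WT thyroid and pituitary Calcb ran from 0 to 0.35; between thyroid and hypothalamus Calcb ran from -0.54 to 0.0492 and Ret from -0.0233 to 0.15; between pituitary and hypothalamus Pth ran from -0.14 to 0.22; and the Ret interaction with the pituitary ran from -0.31 to 0.10. The causes were not tested. With 3 mice per genotype an exact permutation test cannot go below 0.1, and for genes at 0 to 6 reads, such as Calcb outside the K146Q thyroid, the call depended on the setting.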
